A study of Mus musculus with 6 samples.

Results

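The 37 genes described here carry glucose from the cell surface to pyruvate and lactate, or into the pentose phosphate pathway and the mitochondrion. They were chosen by symbol and cover the glucose and lactate transporters, the enzymes of glycolysis, the Pfkfb and Pdk regulatory enzymes, pyruvate dehydrogenase and 4 pentose phosphate enzymes. In the deposited tables the 37 symbols stood on 38 of 54446 gene identifiers, because Aldoa was listed under 2 of them. The tables hold FPKM, fragments mapped to a gene scaled by its exon length and by the size of the library, for 6 RNA-seq libraries of Lewis cells, a mouse lung carcinoma line of wild-type genotype in a state that the labels call stem-like. The RT-MPs group (3 libraries) received RT-MPs for 48 h, a treatment that the labels name without spelling out the abbreviation, and the Control group (3 libraries) is labelled 48 h and untreated. Both groups grew in DMEM with 2% fetal bovine serum. Nothing in the labels tells whether replicates were cultured separately, and the p-values then measure only how far these libraries spread, which may be technical.

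Glucose enters most cells through facilitative transporters and is trapped by hexokinase as glucose 6-phosphate. Glycolysis then splits it into pyruvate, which lactate dehydrogenase reduces to lactate for export, or which pyruvate dehydrogenase commits to the tricarboxylic acid (TCA) cycle. The pentose phosphate pathway draws on the same glucose 6-phosphate for NADPH and ribose. Many tumour cells make lactate from glucose even with oxygen present, and genes of this route are textbook targets of the transcription factors HIF-1 and Myc.

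Because many of these genes are known targets of HIF-1, whose response element has the core letters ACGTG or GCGTG, some member promoters are shown. They are those of the 3 members called higher with all libraries in the main test below, and of the lactate transporter Slc16a1, not called in it. Among them are windows with both motifs and windows with neither. Each window runs from 250 bases before to 50 after the start of the gene in RefSeq (build GRCm38.p6), 5′ to 3′ on the strand of the gene, and capitals mark ACGTG or GCGTG on either strand. The windows are chr4:119108495-119108794 (plus strand) for Slc2a1, chr7:34230287-34230586 (minus strand) for Gpi1, chr6:124769624-124769923 (minus strand) for Eno2 and chr3:104638414-104638713 (plus strand) for Slc16a1.
Slc2a1: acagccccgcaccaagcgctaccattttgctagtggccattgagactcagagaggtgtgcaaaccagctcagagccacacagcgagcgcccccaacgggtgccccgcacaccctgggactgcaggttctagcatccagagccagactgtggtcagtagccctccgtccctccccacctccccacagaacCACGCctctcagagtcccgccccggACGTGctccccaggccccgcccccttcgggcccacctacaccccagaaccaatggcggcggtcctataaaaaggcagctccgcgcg
Gpi1: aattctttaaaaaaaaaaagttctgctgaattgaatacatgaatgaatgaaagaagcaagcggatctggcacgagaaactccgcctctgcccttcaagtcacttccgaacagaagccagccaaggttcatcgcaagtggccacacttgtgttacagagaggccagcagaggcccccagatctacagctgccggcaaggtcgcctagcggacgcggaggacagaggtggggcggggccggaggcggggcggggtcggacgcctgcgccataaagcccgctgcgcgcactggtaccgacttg
Eno2: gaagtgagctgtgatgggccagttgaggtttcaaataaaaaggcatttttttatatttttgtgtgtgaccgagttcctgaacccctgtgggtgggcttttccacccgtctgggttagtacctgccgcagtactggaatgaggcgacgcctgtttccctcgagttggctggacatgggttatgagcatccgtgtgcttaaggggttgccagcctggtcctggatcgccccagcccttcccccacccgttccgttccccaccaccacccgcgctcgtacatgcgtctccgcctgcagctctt
Slc16a1: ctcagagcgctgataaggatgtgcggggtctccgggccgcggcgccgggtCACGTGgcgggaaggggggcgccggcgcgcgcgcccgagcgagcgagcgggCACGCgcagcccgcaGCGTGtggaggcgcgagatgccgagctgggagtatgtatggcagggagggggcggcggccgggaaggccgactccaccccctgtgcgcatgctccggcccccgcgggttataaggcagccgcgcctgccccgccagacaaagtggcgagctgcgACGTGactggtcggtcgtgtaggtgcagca
The Slc2a1 window holds 1 ACGTG, starting at base -36 from the gene start, and 1 GCGTG on the opposite strand at base -61. The Gpi1 and Eno2 windows hold neither motif. The Slc16a1 window holds 3 ACGTG and 2 GCGTG, and 2 of its ACGTG matches are the overlapping strands of a single CACGTG (the E-box) at base -200.

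Of the 37 members, 35 had a RefSeq promoter window, and Slc2a3 and Pdp1 had none in the table used. Some genes had several windows, such as Pfkm with 4, and a gene counted if any of them held the motif. ACGTG on either strand was found in 19 of 35 members (54.3%), against 21.8% of all 27025 genes with a window and 30.4% of the 8513 of them that passed the expression filter used below. GCGTG was found in 25 members (71.4%), against 35.2% of all genes and 58.2% of expressed ones. Either motif was found in 31 members (88.6%), against 46.7% and 69.7%. CACGTG, which contains ACGTG, was found in 6 members (17.1%), against 8.09% and 12.2%. Neither the base composition nor the number of windows per gene was matched between these sets (32851 windows for the 27025 genes). More windows give a gene more chances of a match, and a match is a run of letters, not a bound site.

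The implied read totals of the libraries were 16951005 to 21876546, and 98.5 to 98.7% of low FPKM values were whole reads within 0.1 read. One library, RT-MPs replicate 3, differed from the rest. Its log2(FPKM + 1) values correlated with theirs at 0.959 to 0.969 across genes, against 0.984 to 0.993 among the other pairs. Its FPKM summed to 585752, against 296966 to 303798 elsewhere, with Gm23935 at 242123 FPKM, against 2845 and 3084 in RT-MPs replicates 1 and 2 and 3213 to 3714 in Control. Long genes read low in it: the difference of RT-MPs replicate 3 from the mean of replicates 1 and 2 had Spearman's rho of -0.44 with exon length across 11910 genes and -0.48 across the 33 members tested. The difference of RT-MPs replicate 1 from 2 had a rho of -0.17 across the same 11910 genes. With genes split by length into 5 classes, the median difference of RT-MPs replicate 3 ran from 0.17 in the shortest class to -0.27 in the longest (log2 scale). The calls and list counts are therefore given with and without this library, and the part that this library plays in a result was not tested beyond that.

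The cells were checked against marker genes. Krt8 averaged 149.6 ± 8.92 FPKM in RT-MPs and 168 ± 5.60 FPKM in Control libraries (SD, n = 3 each), and Vim 939 ± 18.4 and 933 ± 18.8 FPKM, while the epithelial genes Epcam and Cldn4 and the lung gene Nkx2-1 were at 0 in every library. Only 2 of 7 epithelial and 1 of 6 lung alveolar and airway genes passed the filter, against 5 of 6 mesenchymal and 4 of 6 fibroblast genes. Of 7 stem-like state genes, 2 passed (Cd44 and Klf4), and Nanog was at 0 throughout. Of 8 leukocyte genes only Cd68 passed, with Adgre1 and Csf1r at 0 and Ptprc at most 0.00600 FPKM. The summed leukocyte list was 39.2 to 40.4 FPKM in RT-MPs and 28.9 to 33.1 FPKM in Control, and Cd68 itself was called higher (log2 change 0.37, adjusted p = 0.0446 by limma). No endothelial and no erythroid gene passed (sums of at most 0.344 FPKM in RT-MPs and 0.809 FPKM in Control). In bulk RNA, fewer cells of a type and less RNA per cell cannot be told apart.

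Several genes of the route from glucose to lactate were among the most abundant messages of these cells, Pgk1 at percentile 99.9 and Pkm at percentile 99.7 of the tested genes in Control. Pgk1, which makes the first ATP of glycolysis, averaged 1448 ± 76.6 FPKM in RT-MPs and 1345 ± 59.9 FPKM in Control (SD, n = 3 each). Pkm, the pyruvate kinase of its last step, averaged 970 ± 43.4 and 933 ± 25.3 FPKM, and Aldoa, the aldolase that splits the sugar, 963 ± 77.3 and 830 ± 21.8 FPKM. Together the members took 2.45, 2.40 and 2.39% of the reads over genes in the RT-MPs libraries, against 2.11, 2.27 and 2.15% in the Control libraries. The 3 RT-MPs shares were above the 3 Control shares. By mean level per length, Pgk1, Pkm, Aldoa, Eno1 and Ldha came first in both groups, followed by Slc2a1, Gpi1, Pgam1 and Tpi1 at 275 to 393 FPKM in RT-MPs and 247 to 277 FPKM in Control. Taldo1 was the highest of the regulatory, pyruvate dehydrogenase and pentose phosphate genes, at 84.95 ± 7.74 FPKM in RT-MPs and 82.75 ± 2.49 FPKM in Control.

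**Figure D1:**
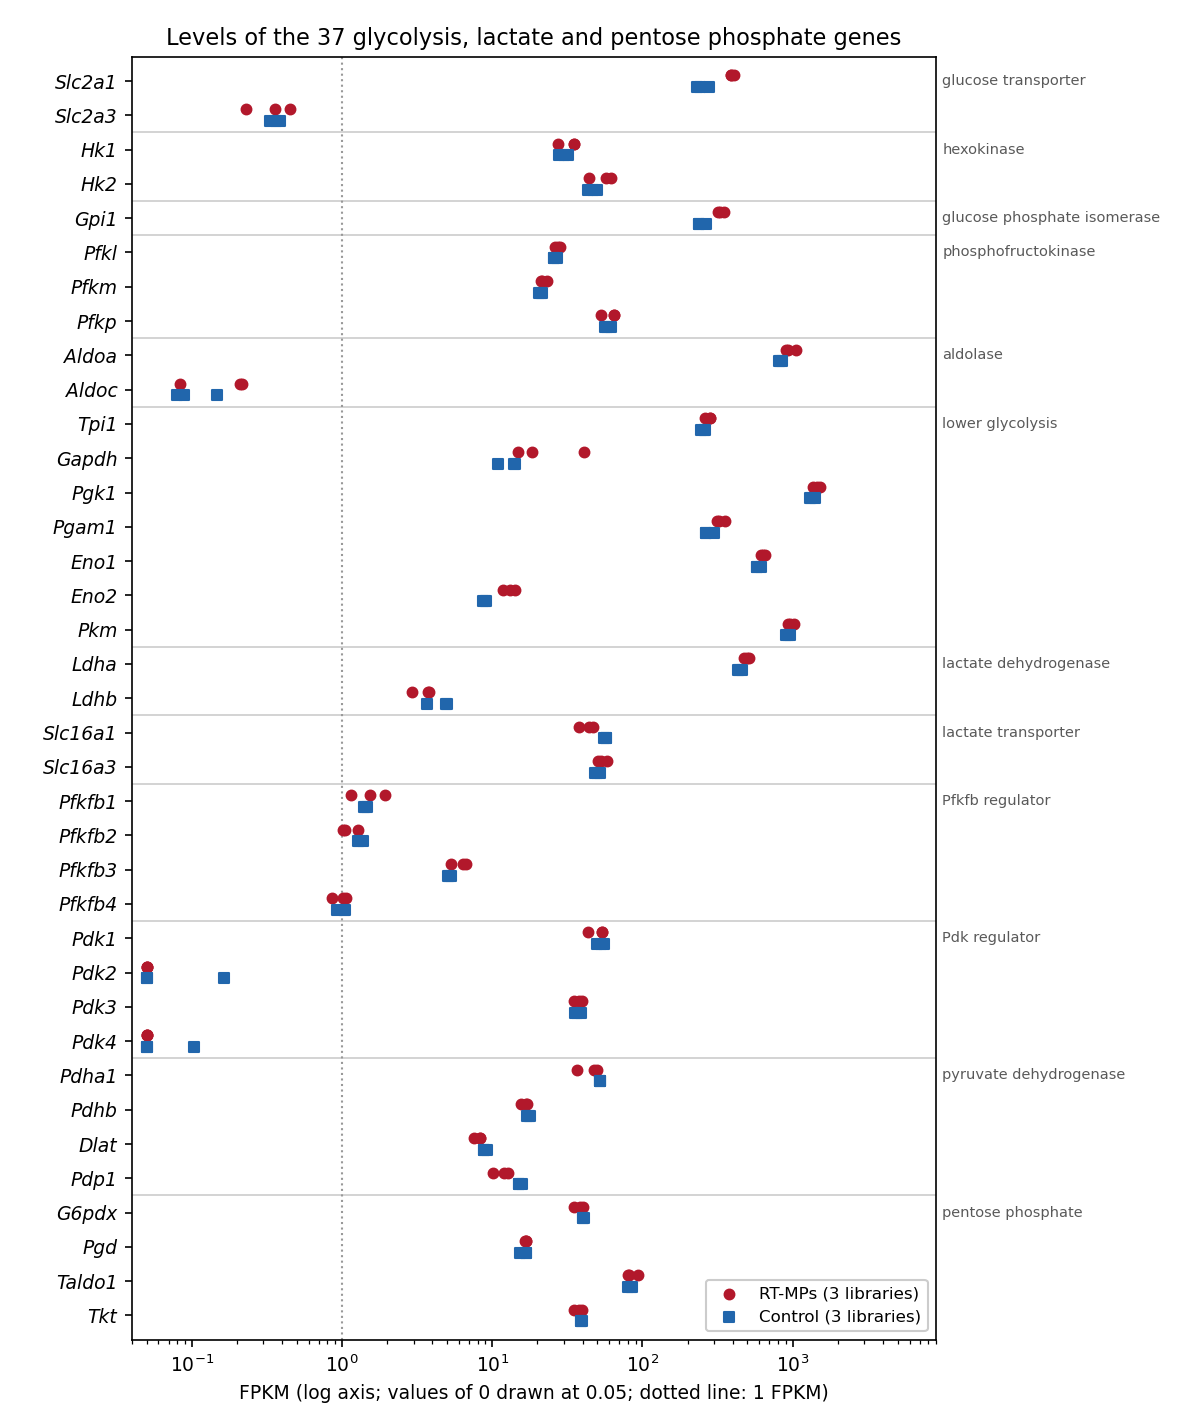
Level of each member as FPKM on a log axis in each library, RT-MPs (3 libraries) and Control (3 libraries), with members grouped by role, values of 0 drawn at 0.05 and the minor Aldoa identifier left out. Pgk1, Pkm and Aldoa stand at the top, between 812 and 1522 FPKM, and Slc2a3, Aldoc, Pdk2 and Pdk4 lie below 1 FPKM in every library.

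Of the 38 identifiers, 33 (32 symbols) had a mean of at least 1 FPKM over the 6 libraries and were tested among 11915 genes by limma on log2(FPKM + 1), with Benjamini-Hochberg adjustment over all of them and a threshold of 0.05. Slc2a3, Aldoc, Pfkfb4, Pdk2 and Pdk4 did not pass this filter. The test called 3 members higher in RT-MPs (Slc2a1, Gpi1 and Eno2), against a background of 1.29% of all genes tested. It called 0 members lower, against 2.70% of all genes. At an unadjusted p under 0.05 limma had 9 members in either direction, against 27.3% of all genes, of which 7 were higher (Slc2a1, Gpi1, Eno2, Aldoa, Pgam1, Ldha and Pfkfb3), against 6.37%. The remaining 2 were lower (Slc16a1 and Pdp1), against 20.9%. Limma's voom on recovered reads called Slc2a1, Gpi1 and Eno2 higher, against 1.73% of all genes, and Slc16a1 and Pdp1 lower, against 5.04%. Without RT-MPs replicate 3 the test called 7 members higher (the same 3 with Hk1, Hk2, Aldoa and Pfkfb3), against 6.26%, and 2 lower (Slc16a1 and Pdp1), against 15.1%. The 3 calls of the full set did not hold under TPM, where the log2 changes of Slc2a1, Gpi1 and Eno2 were 0.34, 0.12 and 0.23. Nor did they hold without the filter or with the replicate block, and quantile normalization kept only that of Eno2. All 3 held under median-ratio scaling (adjusted p = 0.0240, 0.0293 and 0.0331 by limma) and under a common sum over protein-coding nuclear genes. Over all genes these 2 scalings called 231 and 117 higher.

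The 3 RT-MPs values lay above the 3 Control values for 9 members, against 9.61% of all genes, and below them for 6, against 30.4%, so that 15 did not overlap, against 40.0%. The 9 were Slc2a1, Gpi1, Aldoa, Tpi1, Gapdh, Pgam1, Eno2, Ldha and Pfkfb3, and the 6 were Slc16a1, Pfkfb2, Pdha1, Pdhb, Dlat and Pdp1. The log2 change was above 0 for 23 of 33 members, against 33.1% of all genes, and for 22 without RT-MPs replicate 3, against 35.6%. It was above 0 for 4 of 33 when each library was rescaled to a common sum over all genes (TPM). The share over all genes was not counted there, but their median was -0.38, so the 4 are not a result about the members. The median log2 change of the members was 0.05, beside -0.09 over all genes tested. The TPM scaling, in which the large sum of RT-MPs replicate 3 lowers every other gene of that library, gave -0.24 for the members beside -0.38 over all genes. A common sum shifts all genes of a library alike, so the gap between the medians stayed at 0.14. It was 0.06 under quantile normalization, 0.08 with no filter and 0.14 without RT-MPs replicate 3. The deviations of single libraries from the Control mean had member medians of 0.10, 0.05 and 0.01 in RT-MPs replicates 1, 2 and 3, beside -0.06, -0.06 and -0.14 over all genes. In Control replicates 1, 2 and 3 the member medians were -0.03, 0.04 and -0.01, beside 2.8e-05, -0.0058 and 0.0048 over all genes. The member medians thus overlapped between the groups.

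**Figure D2:**
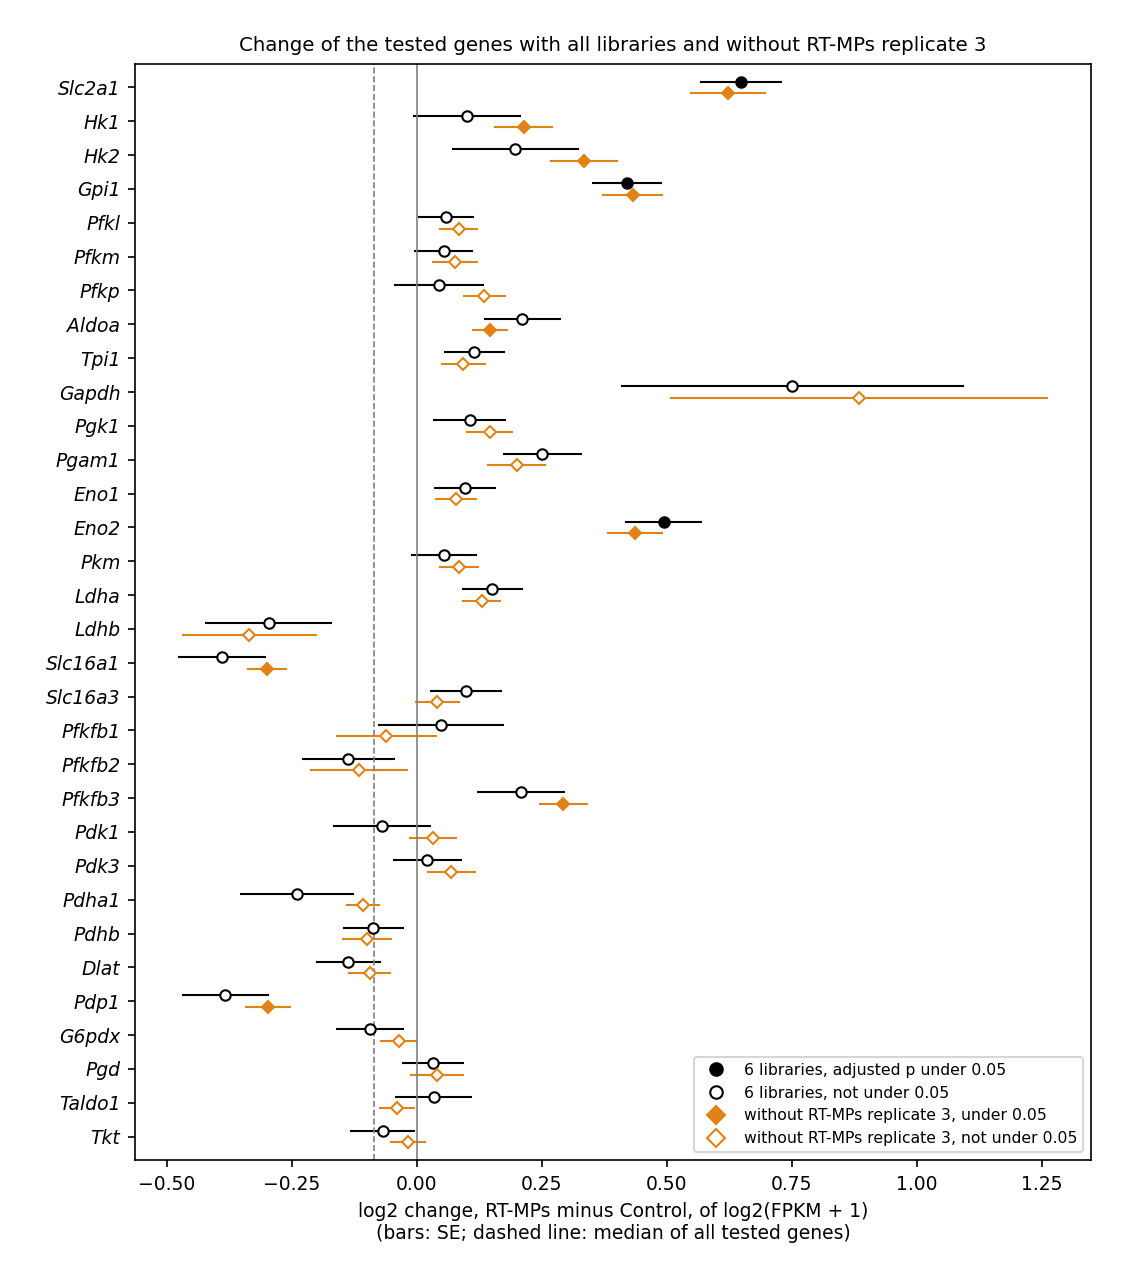
Log2 change of FPKM + 1, RT-MPs over Control, with its standard error for the 32 member symbols tested (the minor Aldoa identifier is not drawn), with all 6 libraries and without RT-MPs replicate 3. With all 6 libraries Slc2a1, Gpi1 and Eno2 pass an adjusted p of 0.05, and under the TPM scaling none of the 3 does although all 3 stay above 0.

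Slc2a1, which encodes the glucose transporter GLUT1 and lies at chr4:119108711-119137983 on the plus strand in GENCODE M21, was the member with the lowest adjusted p. It had 387, 386 and 407 FPKM in the RT-MPs libraries, against 232, 279 and 243 FPKM in the Control libraries. All 3 RT-MPs libraries were above the highest Control library, and they differed less among themselves than the Control libraries did. The log2 change was 0.65 (SE 0.08), a 1.57-fold higher level, with an adjusted p of 0.0278 by limma. Without RT-MPs replicate 3 it was 0.62 (adjusted p = 0.00813 by limma). The call was lost without any other single library, with adjusted p-values by limma of 0.184, 0.0541 and 0.178 without Control replicates 1, 2 and 3 and of 0.0636 and 0.0895 without RT-MPs replicates 1 and 2, while the log2 change stayed between 0.59 and 0.72. No 50-base window of its transcripts is shared with another gene. Slc2a3, the neuronal-type transporter GLUT3, was below 0.5 FPKM in every library, so Slc2a1 made up 99.9% of the summed FPKM of the pair in both groups.

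Hexokinase, the step that traps glucose in the cell, was present as Hk1 and Hk2. Hk2, the inducible form common in tumours, had 61.8, 56.8 and 44.3 FPKM in RT-MPs, against 43.5, 50.04 and 47.1 FPKM in Control. RT-MPs replicates 1 and 2 were above every Control library, and replicate 3 lay among them. With all libraries its log2 change was 0.20 (SE 0.13, adjusted p = 0.353 by limma), and it was 0.33 (adjusted p = 0.0216 by limma) without RT-MPs replicate 3. Hk1, the form found in most tissues, had 34.8, 35.2 and 27.5 FPKM in RT-MPs, against 28.0, 32.1 and 30.1 FPKM in Control. The groups overlapped through RT-MPs replicate 3, which was the lowest of all 6. Its log2 change was 0.10 (adjusted p = 0.563 by limma), and 0.21 (adjusted p = 0.0471 by limma) without that library. The exon lengths of Hk1 and Hk2, 8532 and 5969 bases, are in the range where RT-MPs replicate 3 read low across genes. Members of like length varied. That library was the lowest of all for Pdk1 (7779 bases) but lay between the other RT-MPs libraries for Gpi1 (6452 bases). Whether length set the Hk1 and Hk2 values was not tested.

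Gpi1, glucose phosphate isomerase, turns glucose 6-phosphate into fructose 6-phosphate and lies at chr7:34201330-34230336 on the minus strand. It had 320, 347 and 326 FPKM in RT-MPs, against 238, 265 and 239 FPKM in Control. The groups did not overlap, and RT-MPs replicate 3 lay between the other 2. RT-MPs exceeded Control by a log2 change of 0.42 (SE 0.07, adjusted p = 0.0375 by limma), and 0.43 (adjusted p = 0.0104 by limma) without RT-MPs replicate 3. The adjusted p by limma was 0.209, 0.119 and 0.213 without Control replicates 1, 2 and 3, and 0.0703 and 0.0980 without RT-MPs replicates 1 and 2. Quantile normalization lowered the log2 change to 0.27 and ended the call (adjusted p = 0.166 by limma). Of the 50-base windows of its principal transcript, 19.3% also occur in other genes, so its level is uncertain to that extent.

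Phosphofructokinase commits fructose 6-phosphate to glycolysis, and its 3 genes were near the same level in both groups. Pfkp, the platelet form, averaged 60.9 ± 6.53 FPKM in RT-MPs and 58.9 ± 2.50 FPKM in Control, Pfkl, the liver form, 27.3 ± 0.964 and 26.1 ± 0.619 FPKM, and Pfkm, the muscle form, 21.8 ± 1.02 and 21.0 ± 0.535 FPKM (SD, n = 3 each). Their log2 changes were 0.04 to 0.06, or 0.08 to 0.13 without RT-MPs replicate 3, and did not pass the test. The shares of the 3 forms within a library overlapped between the groups. The mean Pfkp share differed by -0.25 percentage points, and by -0.84, -0.81 and 0.91 points without RT-MPs replicates 1, 2 and 3.

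Below this step the 2 aldolase identifiers tested and the 7 genes from Tpi1 to Pkm had log2 changes above 0 on the deposited scale, while under TPM 7 of these 9 were below 0 (all but Gapdh and Eno2) and under quantile normalization Tpi1 and Eno1 were. Aldoa had 929, 908 and 1051 FPKM in RT-MPs, against 812, 854 and 824 FPKM in Control. The groups did not overlap, and RT-MPs replicate 3 was highest. For Aldoa the log2 change was 0.21 (SE 0.08, adjusted p = 0.143 by limma), and 0.15 (adjusted p = 0.0352 by limma) without RT-MPs replicate 3. The minor Aldoa identifier averaged 3.31 ± 0.242 FPKM in RT-MPs and 2.95 ± 0.279 FPKM in Control, and Aldoc, the brain aldolase, was below 0.22 FPKM in every library. Tpi1, triose phosphate isomerase, averaged 275 ± 11.6 and 253 ± 8.04 FPKM (log2 change 0.12, not called). Pgk1 averaged 1.08-fold the Control level (log2 change 0.11, not called), and Pgam1, phosphoglycerate mutase, averaged 329 ± 21.0 FPKM in RT-MPs and 277 ± 19.3 FPKM in Control (log2 change 0.25, adjusted p = 0.110 by limma). Without RT-MPs replicate 3 the log2 changes of Tpi1, Pgk1 and Pgam1 were 0.09, 0.15 and 0.20, and none was called.

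Enolase makes phosphoenolpyruvate, and its genes differed in size of change. Eno2, the enolase of neurons that is also made in many tumour lines, lies at chr6:124760053-124769673 on the minus strand. It had 11.8, 13.1 and 14.2 FPKM in RT-MPs, against 8.98, 9.16 and 8.72 FPKM in Control. All 3 RT-MPs libraries were above the Control libraries, which lay within 0.5 FPKM of each other. The log2 change was 0.49 (SE 0.08, adjusted p = 0.0335 by limma), and 0.44 (adjusted p = 0.00874 by limma) without RT-MPs replicate 3. The call held without RT-MPs replicate 1 and was lost without RT-MPs replicate 2 (adjusted p = 0.0945 by limma) and without Control replicates 1, 2 and 3 (0.192, 0.135 and 0.195). Eno1, the main form, averaged 634 ± 19.2 FPKM in RT-MPs and 593 ± 22.2 FPKM in Control, a log2 change of 0.10 (0.08 without RT-MPs replicate 3) that was not called. Eno2 was thus 2.02 ± 0.173% of the summed enolase FPKM in RT-MPs libraries and 1.49 ± 0.0380% in Control libraries, with no overlap.

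Pkm had 1015, 964 and 929 FPKM in RT-MPs, against 908, 958 and 934 FPKM in Control. The groups overlapped and the log2 change was 0.05 (SE 0.07, adjusted p = 0.609 by limma), or 0.08 without RT-MPs replicate 3 (adjusted p = 0.172 by limma). The FPKM are per gene, so the M1 and M2 splice forms of Pkm were not analysed here. Gapdh, which oxidises glyceraldehyde 3-phosphate, had 14.8, 40.8 and 18.5 FPKM in RT-MPs, against 13.9, 14.2 and 10.9 FPKM in Control. These levels are far below those of Tpi1 and Pgk1, the steps on either side, and RT-MPs replicate 2 was the highest of the 6 libraries. For Gapdh this came to a log2 change of 0.75 (SE 0.34, adjusted p = 0.213 by limma), 0.33 without RT-MPs replicate 2 (adjusted p = 0.196 by limma) and 0.88 without RT-MPs replicate 3 (adjusted p = 0.140 by limma). Of the 50-base windows in the principal Gapdh transcript of 1420 bases, 82.5% also occur in other annotated genes, and 218 other genes share at least 1 window with it. Whether this sharing set the low count was not tested. For Eno1 the share was 72.2%, for Pgk1 68.0% and for Pgam1 41.5%, and for Pdhb, Ldhb and Ldha it was 30.3, 27.0 and 17.1%. Over all Pkm transcripts, 25.8% of the 50-base windows were shared. The levels of these genes are uncertain where reads were split between copies, whereas the share was 0 for Slc2a1, Hk2, Slc16a1 and Slc16a3. Among such copies Eno1b averaged 23.1 ± 2.39 FPKM in RT-MPs and 24.7 ± 0.594 FPKM in Control, Pgk1-rs7 11.7 ± 1.45 and 13.0 ± 0.838 FPKM, Ldha-ps2 5.29 ± 1.37 and 3.66 ± 0.597 FPKM, and Pgam1-ps2 6.91 ± 1.25 and 5.48 ± 0.742 FPKM.

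**Figure D3:**
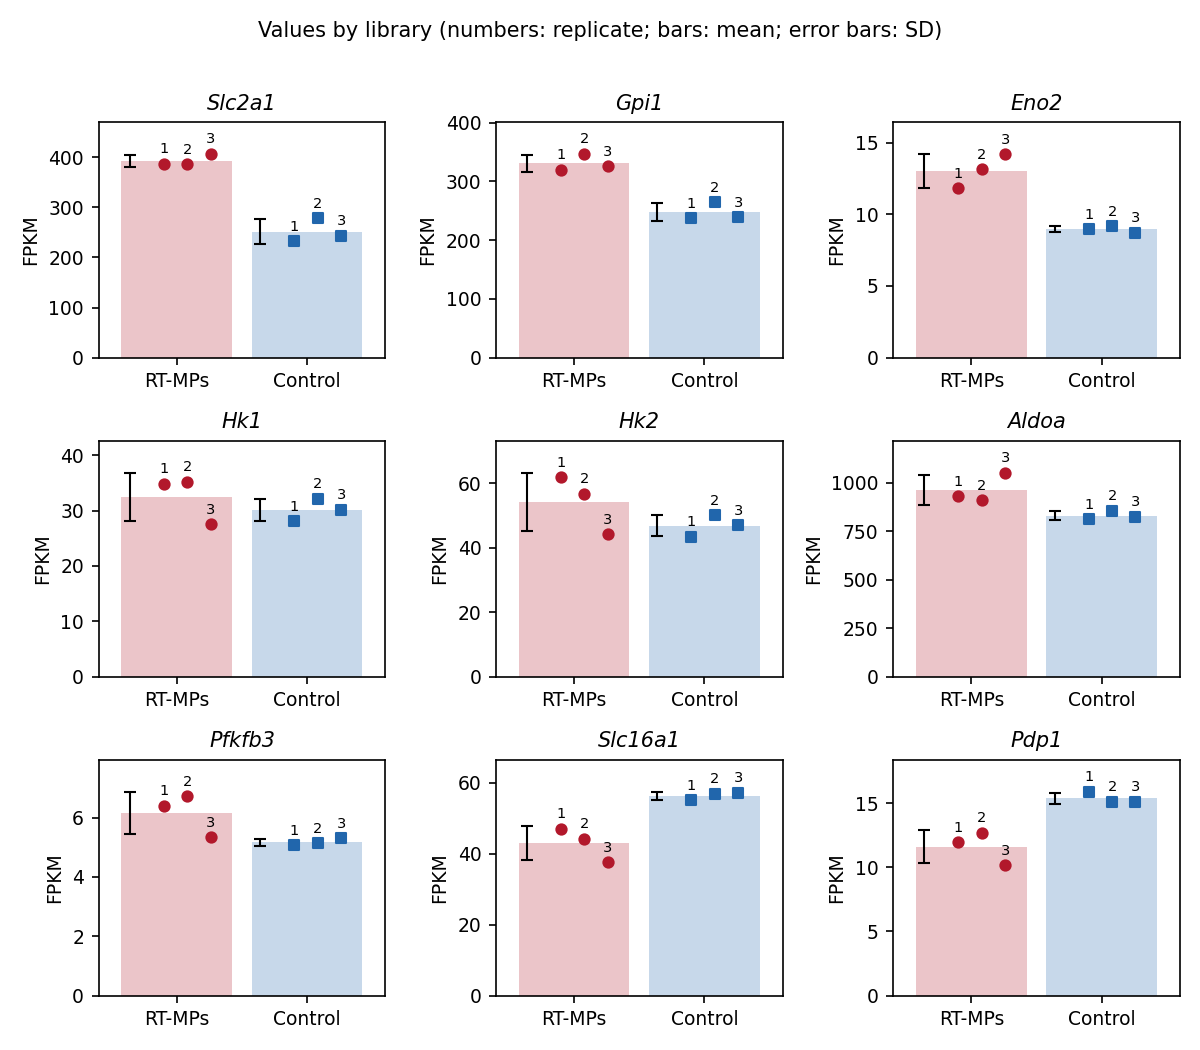
FPKM in each library (points) with group means and SD (bars and error bars) for the 9 members called with all 6 libraries or without RT-MPs replicate 3, RT-MPs left of Control. Slc2a1, Gpi1 and Eno2 do not overlap between the groups, Slc16a1 and Pdp1 are lower in all 3 RT-MPs libraries than in any Control library, and for Hk1 and Hk2 RT-MPs replicate 3 lies apart from replicates 1 and 2.

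Lactate dehydrogenase was nearly all Ldha, the subunit that favours lactate. Ldha had 496, 478 and 509 FPKM in RT-MPs, against 433, 461 and 440 FPKM in Control. The groups did not overlap, but the log2 change of 0.15 (SE 0.06) was not called (adjusted p = 0.170 by limma), nor was that of 0.13 without RT-MPs replicate 3 (adjusted p = 0.0627 by limma). Ldhb, the subunit that favours pyruvate, had 2.94, 3.81 and 3.72 FPKM in RT-MPs, against 4.89, 3.69 and 4.98 FPKM in Control. The groups overlapped through Control replicate 2, and the log2 change was -0.30 (SE 0.13, adjusted p = 0.192 by limma), or -0.33 without RT-MPs replicate 3 (adjusted p = 0.123 by limma). Ldhb made up 0.702 ± 0.102% of the pair in RT-MPs and 1.01 ± 0.187% in Control.

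The balance of the lactate transporters differed between the groups without overlap. Slc16a1 encodes MCT1, which carries lactate and pyruvate in either direction, and lies at chr3:104638668-104658462 on the plus strand. It had 47.1, 44.3 and 37.7 FPKM in RT-MPs, against 55.1, 56.9 and 57.2 FPKM in Control. Every RT-MPs library was below every Control library, and RT-MPs replicate 3 was lowest. For Slc16a1 the log2 change was -0.39 (SE 0.09, adjusted p = 0.0591 by limma), and -0.30 (adjusted p = 0.00939 by limma) without RT-MPs replicate 3. Voom on the recovered reads gave an adjusted p of 0.0480.

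Slc16a3 encodes MCT4, known for lactate export from glycolytic cells. It averaged 54.0 ± 4.06 FPKM in RT-MPs and 50.4 ± 1.91 FPKM in Control, with overlapping groups and a log2 change of 0.10, or 0.04 without RT-MPs replicate 3 (neither called). The balance of the pair within a library does not depend on how libraries are scaled. Slc16a1 was 46.9, 46.7 and 39.2% of the summed FPKM of both in RT-MPs, against 53.1, 52.1 and 53.4% in Control. So Slc16a3 was the more abundant per length in all 3 RT-MPs libraries, and Slc16a1 in all 3 Control libraries. The difference was -8.54 percentage points, and -5.99 without RT-MPs replicate 3. A two-sided exact permutation test gave p = 0.1, the smallest that 3 against 3 libraries allow, or 0.283 adjusted over the 17 isozyme shares compared. The shares of Slc2a1, Hk1, Eno1, Ldha and Pfkfb2 in their families reached the same p by this test. Bsg, the chaperone that brings both transporters to the membrane, had 527, 534 and 627 FPKM in RT-MPs, against 416, 466 and 429 FPKM in Control (log2 change 0.36, adjusted p = 0.0704 by limma), and passed without RT-MPs replicate 3 (0.28, adjusted p = 0.0180 by limma). Emb, another chaperone of monocarboxylate transporters, lay on the other side, with 73.6, 70.9 and 61.8 FPKM in RT-MPs, against 81.6, 77.5 and 81.4 FPKM in Control (log2 change -0.22, adjusted p = 0.134 by limma). Its groups did not overlap, and it was called lower without RT-MPs replicate 3 (-0.15, adjusted p = 0.0416 by limma).

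**Figure D4:**
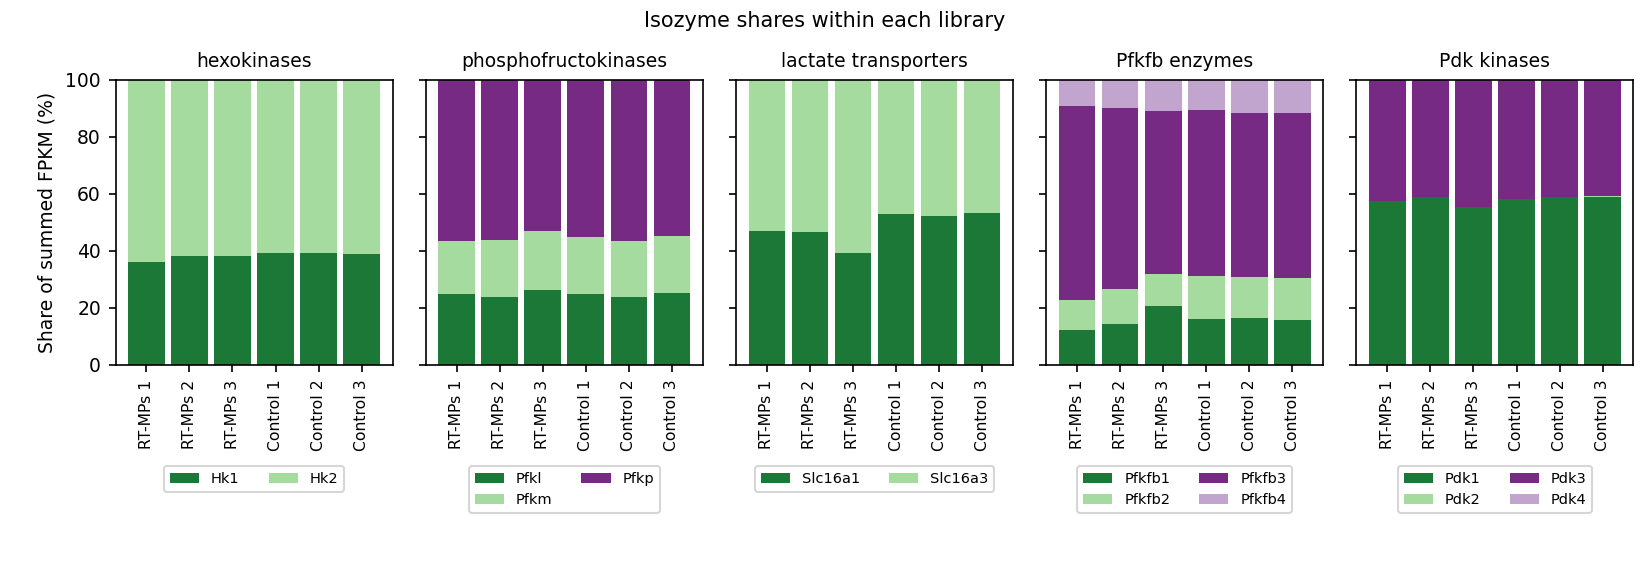
Share of the summed FPKM of a family (percent, stacked to 100) held by each isozyme in each of the 6 libraries, RT-MPs left of Control. Slc16a1 is 39.2 to 46.9% of the lactate transporter pair in RT-MPs libraries and 52.1 to 53.4% in Control libraries. The hexokinase and Pfkfb2 shares do not overlap between the groups either, whereas the phosphofructokinase and the Pdk1 and Pdk3 shares do.

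The Pfkfb enzymes make and break fructose 2,6-bisphosphate, the activator of phosphofructokinase. Pfkfb3, the form with the strongest kinase activity, had 6.40, 6.72 and 5.34 FPKM in RT-MPs, against 5.08, 5.13 and 5.30 FPKM in Control. The groups did not overlap, with RT-MPs replicate 3 only just above the highest Control library. The log2 change was 0.21 (SE 0.09, adjusted p = 0.183 by limma), and 0.29 (adjusted p = 0.0144 by limma) without RT-MPs replicate 3. Pfkfb2 had 1.01, 1.27 and 1.04 FPKM in RT-MPs, against 1.29, 1.28 and 1.37 FPKM in Control. All RT-MPs values were lower, with RT-MPs replicate 2 only just below the lowest Control library, and the log2 change of -0.14 was not called. Pfkfb1 had 1.15, 1.53 and 1.92 FPKM in RT-MPs, against 1.41, 1.46 and 1.43 FPKM in Control, and Pfkfb4 had 0.863, 1.06 and 1.02 FPKM, against 0.921, 1.04 and 1.05 FPKM. Both overlapped between the groups. Within the family Pfkfb2 took 11.3 ± 0.662% in RT-MPs and 14.7 ± 0.336% in Control with no overlap, and Pfkfb3 62.9 ± 5.35% and 58.0 ± 0.377% (exact permutation p = 0.4). The Pfkfb3 difference was 4.96 percentage points, and 2.45 and 7.77 points without RT-MPs replicates 1 and 3.

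Entry of pyruvate into the mitochondrial pathway is set by pyruvate dehydrogenase, which the Pdk kinases switch off and the phosphatase Pdp1 switches on. Pdp1 and 3 genes of the complex itself were lower in every RT-MPs library than in any Control library on the deposited scale, which held for 30.4% of all genes. Pdp1 had 11.96, 12.7 and 10.2 FPKM in RT-MPs, against 15.9, 15.1 and 15.1 FPKM in Control. For Pdp1 the log2 change was -0.38 (SE 0.09, adjusted p = 0.0607 by limma), and -0.30 (adjusted p = 0.0122 by limma) without RT-MPs replicate 3, with voom giving an adjusted p of 0.0435. Pdha1 and Pdhb, which form the first enzyme of the complex, averaged 44.5 ± 6.97 FPKM and 16.5 ± 0.784 FPKM in RT-MPs, against 52.3 ± 0.163 FPKM and 17.5 ± 0.412 FPKM in Control. Dlat, the second enzyme, averaged 8.06 ± 0.463 FPKM in RT-MPs and 8.95 ± 0.224 FPKM in Control. The log2 changes of these 3 were -0.24, -0.09 and -0.14 with all libraries and -0.11, -0.10 and -0.09 without RT-MPs replicate 3, which was the lowest library for Pdha1 and Dlat, and none was called in either. Under median-ratio scaling Pdhb stood at 0.01.

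Among the kinases, Pdk1 had 53.8, 54.0 and 43.4 FPKM in RT-MPs, against 49.98, 55.5 and 52.7 FPKM in Control. Pdk3 had 39.8, 37.9 and 35.1 FPKM in RT-MPs, against 35.7, 38.9 and 36.5 FPKM in Control. Both overlapped, with log2 changes of -0.07 and 0.02, or 0.03 and 0.07 without RT-MPs replicate 3, that were not called. Pdk2 and Pdk4 were listed at 0 in all 3 RT-MPs libraries and in Control replicates 1 and 2, and at 0.164 and 0.103 FPKM (10 and 7 reads) in Control replicate 3. The 4 pentose phosphate enzymes did not move beyond the spread either. G6pdx, the entry enzyme that makes NADPH, averaged 37.9 ± 2.77 FPKM in RT-MPs and 40.5 ± 0.524 FPKM in Control, and Pgd, the second NADPH step, 16.7 ± 0.202 and 16.3 ± 0.935 FPKM. Tkt and Taldo1, which return pentoses to glycolysis, averaged 37.4 ± 2.47 and 84.95 ± 7.74 FPKM in RT-MPs, against 39.2 ± 0.525 and 82.75 ± 2.49 FPKM in Control. Their log2 changes were between -0.09 and 0.03 with all libraries and between -0.04 and 0.04 without RT-MPs replicate 3, and the groups overlapped for all 4.

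Genes around the route were read from lists written for this report. Of 7 other pentose phosphate genes tested, 0 were called with all libraries by limma, with a list median of -0.28 beside -0.09 over all genes, and 5 were called lower without RT-MPs replicate 3 (Prps2, Prps1, Pgls, Tigar and Rpia), where 15.1% of all genes were. Tigar, a phosphatase that lowers fructose 2,6-bisphosphate, averaged 4.16 ± 0.212 FPKM in RT-MPs and 5.20 ± 0.0893 FPKM in Control (log2 change -0.27, adjusted p = 0.0671 by limma). Of 20 TCA cycle genes 0 were called higher and 3 lower, against 1.29% and 2.70% of all genes, and 0 higher and 5 lower without RT-MPs replicate 3, against 6.26% and 15.1%. Idh1, the cytosolic isocitrate dehydrogenase, had 90.8, 82.2 and 71.5 FPKM in RT-MPs, against 121, 108 and 118 FPKM in Control (log2 change -0.51, SE 0.10, adjusted p = 0.0459 by limma). Suclg1, a succinyl-CoA ligase subunit, fell by 0.34 and Aco1, the cytosolic aconitase, by 0.33 on the log2 scale (adjusted p = 0.0470 and 0.0424 by limma). Idh1 and Aco1 act in the cytosol, so 1 of the 3 that fell works in the mitochondrial cycle itself.

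The genes of the TCA cycle and of the lists that follow that are named as called with all libraries also passed without RT-MPs replicate 3. Over all genes limma called 0, 2 and 0 without Control replicates 1, 2 and 3 (1935, 2265 and 1839 at an unadjusted p under 0.05) and 74 and 10 without RT-MPs replicates 1 and 2, so few calls of any list can hold there.

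Of 15 glycogen and UDP-glucose genes 1 was called, higher, against 1.29% of all genes. It was Gys1, glycogen synthase, with 56.8, 56.1 and 56.3 FPKM in RT-MPs, against 38.5, 45.6 and 41.1 FPKM in Control (log2 change 0.43, SE 0.07, adjusted p = 0.0377 by limma). Without RT-MPs replicate 3, 5 of the 15 were called higher, with the branching enzyme Gbe1 at 0.55 (adjusted p = 0.00785 by limma), and 2 lower, against 6.26% and 15.1% of all genes. Of 4 gluconeogenesis genes Pck2, the mitochondrial phosphoenolpyruvate carboxykinase, was called lower (log2 change -0.38, adjusted p = 0.0395 by limma). Of 7 NADH shuttle genes Slc25a11, the oxoglutarate carrier, was called lower (-0.35, adjusted p = 0.0470 by limma), where 2.70% of all genes were. In these 2 lists 2 of the 4 and 3 of the 7 were called lower without RT-MPs replicate 3, against 15.1% of all genes, and 0 higher, against 6.26%. None was called by limma among 10 other transporters and isozymes and 7 other pyruvate entry genes. Nor was any among 11 genes of fructose, polyol, galactose and mannose use and 7 hexosamine genes. The medians of these lists were -0.14, -0.10, -0.03 and -0.11, beside -0.09 over all genes. Without RT-MPs replicate 3 the other transporters and isozymes had 1 called higher and 2 lower, the pyruvate entry genes 0, the fructose, polyol, galactose and mannose genes 1 higher and 2 lower, and the hexosamine genes 1 higher and 1 lower. The mitochondrial pyruvate carrier genes Mpc1 and Mpc2 had log2 changes of 0.07 and -0.03.

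Of 12 transcription factors and regulators known to act on these genes, 1 was called with all libraries, higher, against 1.29% of all genes. This was Ddit4, an mTORC1 inhibitor induced by stress and low oxygen. It had 99.5, 102 and 115 FPKM in RT-MPs, against 76.2, 80.5 and 73.4 FPKM in Control (log2 change 0.45, SE 0.08, adjusted p = 0.0377 by limma). Hif1a, the regulated subunit of HIF-1, which is controlled chiefly as protein, had 111, 115 and 79.4 FPKM in RT-MPs, against 111, 109 and 111 FPKM in Control, so its log2 change of -0.13 (adjusted p = 0.560 by limma) came with a single low library, and was 0.04 without it. Myc averaged 270.2 ± 18.6 FPKM in RT-MPs and 238 ± 5.96 FPKM in Control (log2 change 0.18, adjusted p = 0.155 by limma). Txnip, which restrains glucose uptake, had 585, 539 and 516 FPKM in RT-MPs, against 695, 647 and 662 FPKM in Control. Its groups did not overlap, and the log2 change of -0.29 was called without RT-MPs replicate 3 (-0.25, adjusted p = 0.0212 by limma) and not with it (adjusted p = 0.0693 by limma). Without RT-MPs replicate 3, 3 of the 12 were called higher and 2 lower, against 6.26% and 15.1% of all genes. Beside Ddit4 and Txnip these were Sp1 (0.24, adjusted p = 0.0108 by limma), Mlxipl, the glucose-responsive factor ChREBP (0.34, adjusted p = 0.0246 by limma), and Trp53 (-0.28, adjusted p = 0.0111 by limma). With all libraries their log2 changes were 0.08, 0.47 and -0.23, with adjusted p-values by limma of 0.689, 0.0822 and 0.0956.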

How the data were processed

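Stranded poly-A libraries (total RNA, KAPA kit, per the labels' protocols) of 3 RT-MPs and 3 Control samples were read as FPKM per gene, the unit of the values the authors deposited. The submitters' processing notes name HISAT2 and mm10, and no source used here gives the counter, its version or its use of strand. Groups come from the sample labels. FPKM times GENCODE M21 exon length gave implied reads. limma 3.58.1 (R 4.3.3, lmFit and eBayes with trend) was run on log2(FPKM + 1) for the 11915 genes with a mean of at least 1 FPKM over 6 libraries, with Benjamini-Hochberg adjustment over all of them. A fold change on this scale understates that of low genes. The step was tested on simulated data that held no library like RT-MPs replicate 3, so that test does not cover such a library. Isozyme shares were compared by two-sided exact permutation tests (scipy 1.17.1). Promoter windows came from RefSeq (GRCm38.p6), and 50-base windows shared between transcripts from GENCODE M21, a check added after the Gapdh level was seen. Gene coordinates are those of GENCODE M21, and their starts can differ from the RefSeq starts that promoter positions count from. Proteins were not analysed here.

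Members and lists were chosen with earlier results of these data known. Every member is named. Of each other list, up to 4 called genes by size of log2 change are named, with Txnip, Hif1a, Myc, Tigar, Mpc1, Mpc2 and Bsg whatever their result. Genes named as called without RT-MPs replicate 3 outside that rule (Prps2, Prps1, Pgls, Rpia, Gbe1, Emb, Sp1, Mlxipl and Trp53), and the marker genes and Gm23935, were picked after their values were seen. Alternatives changed the pseudocount (0.1, 5), the filter (none, 5 FPKM), scaling (median ratio, common sums, quantile), weights, trend, the replicate term, the tool (voom) and the libraries. Median-ratio and common-sum scaling without RT-MPs replicate 3 were added after the data were seen. With 3 libraries a group, an exact permutation test cannot go below p = 0.1.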

Additional observations from a re-analysis of the deposited data

How the results depend on the processing

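Calls depended on the libraries and on scaling far more than on the pseudocount. Members called higher (3 as reported, beside 154 of all genes) numbered 0 with no filter, under TPM and with the replicate block (11, 17 and 0 of all genes). They numbered 1 under quantile normalization (195) and 15 with limma's arrayWeights (1281). With each library left out they numbered 0 to 7 (0 to 746). Under median-ratio and common-sum scaling without RT-MPs replicate 3 they numbered 12 and 10 (1167 and 805). The fits held 11915 genes, except 24831 with no filter, 7569 at a filter of 5 FPKM and 11910 by voom. At an unadjusted p under 0.05 in either direction, limma had 6 members with no filter, 0 under TPM and 7 with the block. Over all genes it had 4012, 813 and 2620. Members called lower (0 as reported, beside 322 of all genes) numbered 1 at a filter of 5 FPKM (321), 3 with arrayWeights (3295) and 2 by voom (600). They numbered 0 to 2 with each library left out (0 to 1802) and 2 in each added setting (936 and 1607). All genes called (476) numbered 26 with no filter, 46 under TPM, 0 with the replicate block (2620 at an unadjusted p under 0.05 by limma), 4576 with arrayWeights, 806 by voom, 0 to 2548 with each library left out, and 2103 and 2412 in the added settings. The member median was 0.16 under median-ratio scaling, -0.24 under TPM and 0.15 under median-ratio scaling without RT-MPs replicate 3. Same-numbered libraries had correlated deviations of 0.10, -0.08 and -0.03, and differently numbered ones ranged from -0.11 to 0.12. Deviations from means of 3 libraries cannot tell whether same-numbered libraries shared a culture, so pairing was not settled.

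Under TPM the log2 changes turned negative for Hk1 (-0.20), Hk2 (-0.10), Pfkl (-0.24), Pfkm (-0.25), Pfkp (-0.26), Aldoa (-0.10, minor identifier -0.12), Tpi1 (-0.19), Pgk1 (-0.20), Pgam1 (-0.056), Eno1 (-0.21), Pkm (-0.25), Ldha (-0.16), Slc16a3 (-0.21), Pfkfb1 (-0.19), Pfkfb3 (-0.051), Pdk3 (-0.28), Pgd (-0.27) and Taldo1 (-0.27), by construction, since the common sum includes Gm23935. Quantile normalization turned Tpi1 (-0.0063), Eno1 (-0.11) and Ldha (-0.022). Median-ratio scaling turned Pdk1 (0.032), Pdhb (0.011), G6pdx (0.0080) and Tkt (0.033), and without RT-MPs replicate 3 Pfkfb1 (-0.022), Pdk1 (0.10), G6pdx (0.029) and Tkt (0.048). The common sum without that library turned Pfkfb1 (-0.077), Pdk1 (0.047) and Taldo1 (-0.025), and arrayWeights Pfkfb1 (-0.14), Pdk1 (0.033), Taldo1 (-0.033) and Tkt (0.0085). Leaving out single libraries gave ranges that cross 0 for Pfkp (-0.0050 to 0.135), Pfkfb1 (-0.061 to 0.161), Pdk1 (-0.122 to 0.033), Pdk3 (-0.020 to 0.069), Pgd (-0.014 to 0.055) and Taldo1 (-0.039 to 0.074). Except for these constructions the cause was not tested. Over members and settings, 543 values kept direction and call, 44 gained a call, 25 lost one and 44 reversed.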
